A study of Mus musculus with 6 samples.

Results

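The genes described here are complement components, receptors and regulators in the gastrocnemius, a calf muscle, of mice that lack Sparc. They were chosen by symbol from the annotation of the array platform, taking for each gene the probe set with the highest mean. Of 9 symbols listed, 8 had such a probe set, and all 8 were among the 16487 genes tested: C1qa, C1qb, C1qc, C4b, C3ar1, C5ar1, Cfp and Serping1. Each was read by 1 probe set. C3 was not analysed here. The study hybridised total RNA from 6 mice to Affymetrix whole-transcript arrays, 3 Sparc knockouts (KO) and 3 wild types (WT), to compare metabolic gene expression in muscle. All were males of 12 weeks. Their strain entry reads B6;129S-Sparctm1Hwe/J in both genotypes, a mix of B6 and 129S. The label calls the mutant group homogenous SPARC knockouts. It does not say which cells lose the gene, nor whether KO and WT mice were littermates.

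Complement is a cascade of plasma and tissue proteins that tags cells and debris for uptake and recruits leukocytes. C1q, built of A, B and C chains, starts the classical pathway by binding antibody complexes or dying cells. C4, C3 and C5 are then cleaved, and the fragments C3a, from C3, and C5a, from C5, signal through receptors on myeloid cells. Most plasma complement is made in the liver, whereas C1q in tissues comes mainly from macrophages, and injured muscle is known to be cleared by macrophages.

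All 8 genes were on average higher in KO muscle than in WT muscle, by 0.29 to 1.00 on the log2 scale, and none passed the threshold over all genes. The median difference of the 8 was 0.65, beside 0.00010 over all genes tested, of which 8244 of 16487 had a positive difference. With limma, 0 of the 8 had a Benjamini-Hochberg adjusted p under 0.05, a threshold that 0.995% of all genes passed in either direction. At an unadjusted p under 0.05, 6 of the 8 were higher and 0 lower, beside 8.16% of all genes higher and 10.3% lower. In the same 6, the 3 C1q chains, C4b, C3ar1 and C5ar1, every KO array lay above every WT array, which held for 11.1% of all genes, and for 0 of the 8 did every KO array lie below, beside 13.8% of all genes. KO array 1 was the highest of the 6 arrays for all 8 genes, beside 22.2% of all genes. The SD over KO arrays exceeded that over WT arrays for all 8, beside 75.4% of all genes. The plot of the 8 genes by array shows both features.

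**Figure D1:**
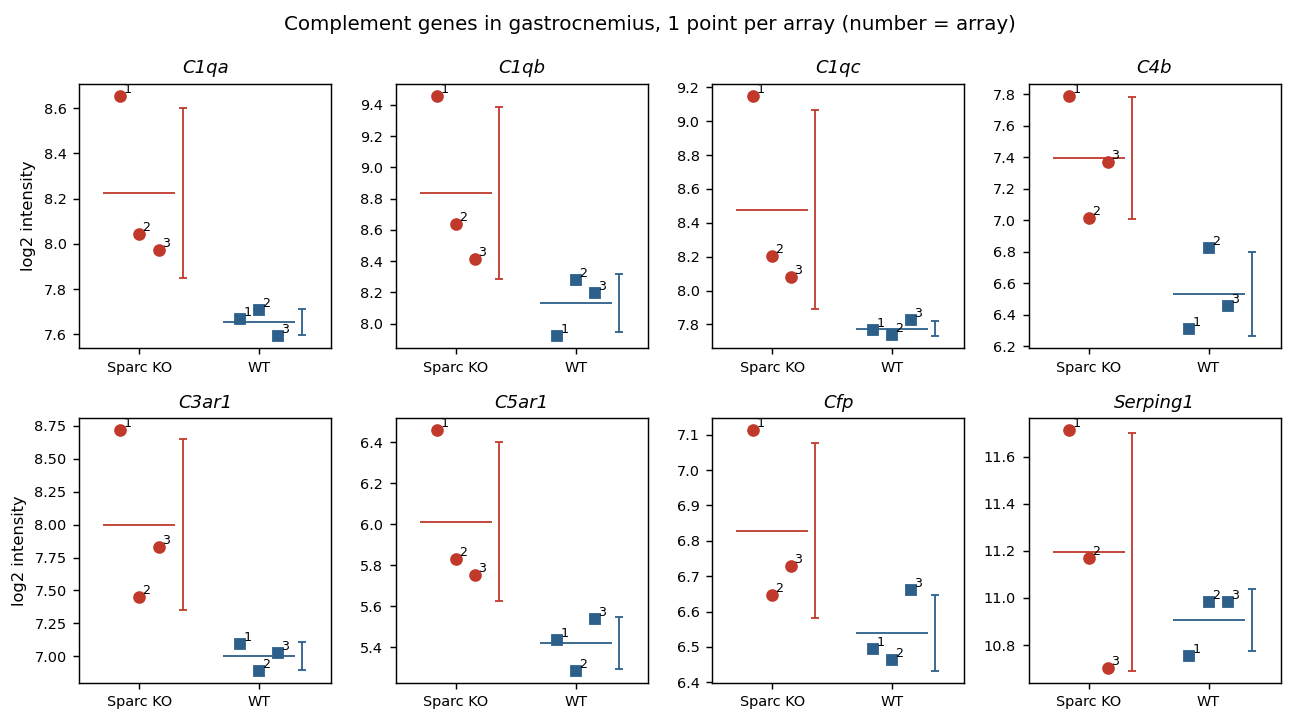
Log2 intensity of 8 complement genes (y axis) in 3 Sparc KO and 3 WT muscles, 1 point per array with the array's number, horizontal lines for group means and bars for 1 SD. KO array 1 is the highest point in every panel, and KO and WT points overlap only for Cfp and Serping1.

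The knockouts were first checked at the targeted gene. Sparc had log2 intensities of 6.74, 6.46 and 5.83 in KO arrays 1, 2 and 3, against 11.80, 11.73 and 11.87 in WT arrays 1, 2 and 3, a difference of -5.46 ± 0.20 (SE; limma adjusted p = 2.08e-05). The labels were thus matched by the Sparc level in all 6 arrays. The median intensity per array was 40.5 to 44.7. Intensities below are the deposited values on a linear scale, differences are KO minus WT on the log2 scale, and ranges after them are 95% intervals from limma. In bulk muscle, more cells of a type and more RNA per cell cannot be told apart, nor can fewer cells and less RNA per cell.

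The genes of the 3 C1q chains lie next to each other on chromosome 4, in the order C1qb, C1qc and C1qa of the RefSeq annotation. The bases before the start sites of C1qb and C1qc are shown because these 2 neighbours had the most similar differences among the chains, and those of C3ar1 because its difference was the largest of the 8 genes. The windows hold the 250 bases before each start site, from RefSeq on GRCm38.p6, and all 3 are on the minus strand: chr4:136886201-136886450 for C1qb, chr4:136892915-136893164 for C1qc and chr6:122856158-122856407 for C3ar1. Capitals mark matches, on either strand, to AGGAAG and GAGGAA, which hold the core bound by Ets factors such as PU.1. They also mark TGANTCA, the letters of an AP-1 site, and TATAAA, the letters of a TATA box, wherever these fall in a window.
C1qb: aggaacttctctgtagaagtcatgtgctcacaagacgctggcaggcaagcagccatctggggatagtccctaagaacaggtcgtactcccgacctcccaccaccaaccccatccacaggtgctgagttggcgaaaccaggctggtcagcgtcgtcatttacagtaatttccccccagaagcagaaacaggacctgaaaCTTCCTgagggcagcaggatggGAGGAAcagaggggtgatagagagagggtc
C1qc: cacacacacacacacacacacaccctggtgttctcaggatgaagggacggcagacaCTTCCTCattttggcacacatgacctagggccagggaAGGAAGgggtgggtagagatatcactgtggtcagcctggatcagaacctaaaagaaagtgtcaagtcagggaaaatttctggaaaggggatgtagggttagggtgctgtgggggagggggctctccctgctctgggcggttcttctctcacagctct
C3ar1: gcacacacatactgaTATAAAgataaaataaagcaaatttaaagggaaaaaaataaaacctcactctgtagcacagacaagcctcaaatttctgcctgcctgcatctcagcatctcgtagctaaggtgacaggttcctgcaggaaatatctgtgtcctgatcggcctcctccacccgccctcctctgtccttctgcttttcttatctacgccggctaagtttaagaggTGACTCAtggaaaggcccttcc
Windows of 6 listed genes matched the table (C1qb, C1qc, C3, C3ar1, C5ar1 and Cfp).

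Counted back from the start site, by the first base of a match as printed, C1qb held AGGAAG on the opposite strand at -52 and GAGGAA at -30. C1qc held AGGAAG at -157, and on the opposite strand AGGAAG at -194 and GAGGAA at -193, which overlap each other. C3ar1 held neither of these, but TGANTCA at -22 and TATAAA at -235. One of the 2 Ets strings was present in 3 of the 6 windows (C1qb, C1qc and C5ar1), beside 39.2% of 32851 windows of the same length over all genes. AGGAAG alone was in 29.5% of all windows, GAGGAA in 23.3%, TGANTCA in 6.75% and TATAAA in 12.4%. The motifs were picked after the windows had been read, and a match is a string of letters and not a measured binding site.

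C1qa, the A chain, had intensities of 403, 264 and 251 in KO arrays 1, 2 and 3, against 203, 209 and 193 in WT arrays 1, 2 and 3. The lowest KO array stood above the highest WT array, and KO array 1 stood well apart from the other KO arrays. The log2 difference was 0.57 (0.18 to 0.96), a 1.48-fold higher mean, with a limma adjusted p of 0.137.

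C1qb, the B chain, had intensities of 703, 399 and 341 in KO arrays 1, 2 and 3, against 242, 310 and 294 in WT arrays 1, 2 and 3. The groups did not overlap, but KO array 3 lay closer to WT array 2 than to KO array 1. The log2 difference was 0.70 (0.15 to 1.26), or 1.63-fold, with a limma adjusted p of 0.177.

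C1qc, the C chain, had intensities of 568, 295 and 271 in KO arrays 1, 2 and 3, against 218, 213 and 227 in WT arrays 1, 2 and 3. The WT arrays were nearly level, with an SD of 0.045 on the log2 scale against 0.59 among KO arrays. Its log2 difference was 0.70 (0.14 to 1.26), again 1.63-fold, with a limma adjusted p of 0.182.

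The 3 chains stood at like heights within each KO array. Relative to the WT mean they were at 1.00 to 1.37 in KO array 1, at 0.39 to 0.51 in KO array 2 and at 0.28 to 0.32 in KO array 3, against -0.21 to 0.14 over the WT arrays. All 3 had the order KO array 1, KO array 2, KO array 3. Without KO array 1 the differences of C1qa, C1qb and C1qc were 0.35, 0.39 and 0.37, with limma adjusted p-values of 0.093, 0.151 and 0.0897.

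C4b encodes the mouse complement component C4, which the proteases of the classical and lectin pathways cleave. Its intensities were 221, 129 and 166 in KO arrays 1, 2 and 3, against 79.3, 113 and 87.7 in WT arrays 1, 2 and 3. The groups did not overlap, although KO array 2 and WT array 2 lay close together. The log2 difference was 0.86 (0.40 to 1.32), or 1.82-fold, with a limma adjusted p of 0.0853, the smallest among the 8 genes. It was 0.66 without KO array 1, and it passed without KO array 2, at 1.05 with a limma adjusted p of 0.024. In that fit 6.17% of all genes passed. C4a, a close copy of C4b on chromosome 17, had a difference of 0.48 ± 0.20 (SE; limma adjusted p = 0.247), and signal shared between such copies cannot be assigned with certainty.

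Both anaphylatoxin receptors were higher in every KO array. C3ar1, the receptor of C3a, had intensities of 420, 175 and 227 in KO arrays 1, 2 and 3, against 137, 119 and 130 in WT arrays 1, 2 and 3. KO array 1 was far above the rest, and KO array 2, the lowest of its group, still exceeded WT array 1. The log2 difference of 1.00 (0.38 to 1.61), or 1.99-fold, was the largest of the 8 genes, with a limma adjusted p of 0.117. It was 0.64 without KO array 1 (adjusted p = 0.066). Without KO array 2 it was 1.27 and passed (adjusted p = 0.0266), in a fit in which 6.17% of all genes passed.

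C5ar1, the receptor of C5a, was the dimmest of the 8 genes. Its intensities were 88.0, 56.9 and 53.9 in KO arrays 1, 2 and 3, against 43.3, 39.0 and 46.6 in WT arrays 1, 2 and 3. The groups did not overlap, and KO arrays 2 and 3 lay nearer to the WT arrays than to KO array 1. Its log2 difference was 0.59 (0.18 to 1.01), or 1.51-fold, with a limma adjusted p of 0.143, and 0.37 without KO array 1. C5ar2, a second C5a receptor encoded next to C5ar1, was named after its values were seen and had a difference of 0.21 ± 0.12 (SE; limma adjusted p = 0.39).

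Of the regulators, neither separated the genotypes. Cfp, properdin, which stabilises the alternative pathway's C3 convertase, had intensities of 138, 100.1 and 106 in KO arrays 1, 2 and 3, against 90.1, 88.2 and 101 in WT arrays 1, 2 and 3. WT array 3 exceeded KO array 2. The log2 difference was 0.29 (-0.019 to 0.60), with a limma adjusted p of 0.302, and 0.15 without KO array 1.

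Serping1, the C1 inhibitor, which inactivates the proteases of the C1 complex, had intensities of 3355, 2305 and 1667 in KO arrays 1, 2 and 3, against 1727, 2024 and 2022 in WT arrays 1, 2 and 3. KO array 3 was the lowest of all 6 arrays and KO array 1 the highest. The log2 difference was 0.29 (-0.21 to 0.79), with a limma adjusted p of 0.538. It depended on single arrays: it was 0.031 without KO array 1 and 0.53 without KO array 3, and passed in neither case.

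The KO arrays did not keep 1 order across the 8 genes below KO array 1. KO array 2 exceeded KO array 3 for the C1q chains, C5ar1 and Serping1, and KO array 3 exceeded KO array 2 for C4b, C3ar1 and Cfp. The mean over the 8 genes relative to the WT mean was 1.14, 0.38 and 0.36 in KO arrays 1, 2 and 3, against -0.065, 0.025 and 0.040 in WT arrays 1, 2 and 3. With KO array 1 left out, the median difference of the 8 was 0.37, beside 0.014 over all genes, and 6 of the 8 were higher at an unadjusted p under 0.05, beside 10.7% of all genes.

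**Figure D2:**
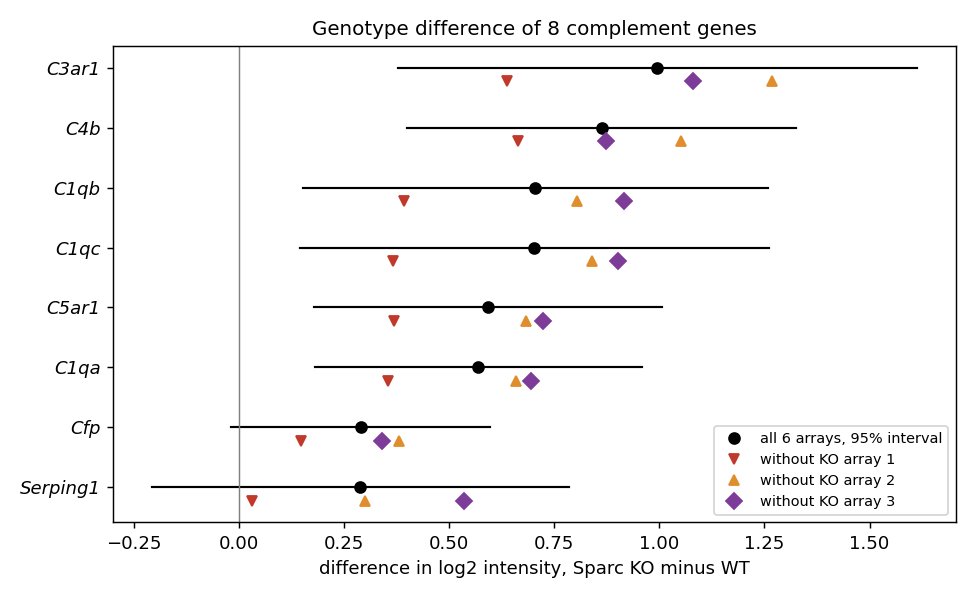
Difference in log2 intensity, Sparc KO minus WT (x axis), of 8 complement genes, with black points and 95% intervals for all 6 arrays and coloured marks for fits that leave out 1 KO array. The intervals of Cfp and Serping1 include 0, and leaving out KO array 1 gives the lowest of the marks for every gene.

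Macrophage, fibroblast and tendon markers were, like these genes, highest in KO array 1 in their list means, and their part in the results was not tested. The trait was not particular to them. KO array 1 was also highest in the neutrophil, T cell and mast cell list means, at 0.083, 0.32 and 0.59 relative to WT. By single gene it was highest for 4 of 5 mast cell markers, but for 1 of 5 neutrophil and 1 of 4 T cell markers. The share over all genes was 22.2%. In the neutrophil list mean KO array 3 stood close behind, at 0.075. In the endothelial list KO array 1 stood level with KO array 2 at the top, at 0.33. KO array 1 was not highest in the adipocyte list mean, and it was the lowest of the 6 arrays in the dendritic cell and muscle fibre list means. The muscle fibre mean was -0.13 in KO array 1, against -0.028 to 0.050 over the other arrays. All 12 macrophage markers were above the dim filter and had a positive difference, with 0 past the limma threshold. At an unadjusted p under 0.05, 6 were higher, beside 8.16% of all genes. Among them Cd68 was at 0.99 ± 0.23 and Lyz2, lysozyme, at 0.85 ± 0.22 (SE). KO array 1 was the highest array for all 12, beside 22.2% of all genes. Their summed intensity was 2817 to 5257 over KO arrays and 2120 to 2393 over WT arrays. Their mean relative to WT was 0.99, 0.22 and 0.21 in KO arrays 1, 2 and 3, beside 1.23, 0.44 and 0.30 for the C1q mean.

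Each gene was also set against the mean of the macrophage markers of the same array. Those markers did not move together in KO array 3. There Lyve1 and Cd163, at log2 intensities of 7.58 and 6.62, lay below every WT array, and Mrc1 lay among the WT arrays. The rest lay above every WT array, with Cd68 at 7.52 and Lyz2 at 10.58. The values below thus depend on which markers the list holds. C3ar1 less the macrophage mean, each relative to WT, was 0.72, 0.23 and 0.61 in KO arrays 1, 2 and 3, against -0.13 to 0.13 in WT arrays. The C1q mean less the macrophage mean was 0.24, 0.22 and 0.087 in KO arrays 1, 2 and 3, against -0.026 to 0.037 in WT arrays. Of the single chains, C1qc had KO values of 0.091 to 0.38 above its WT values of -0.055 to 0.036, whereas the groups overlapped for C1qa (0.011 to 0.17 in KO arrays, -0.091 to 0.054 in WT arrays) and for C1qb (0.066 to 0.34 in KO arrays, -0.17 to 0.13 in WT arrays). They overlapped for C5ar1 too, at 0.048 to 0.19 in KO arrays and -0.15 to 0.091 in WT arrays. C4b so treated was at 0.27, 0.27 and 0.63 in KO arrays 1, 2 and 3, against -0.18 to 0.28 in WT arrays, and the groups overlapped. Cfp was at -0.42, -0.11 and -0.024 in KO arrays 1, 2 and 3, against -0.092 to 0.094 in WT arrays, and Serping1 at -0.18, 0.046 and -0.42 in KO arrays 1, 2 and 3, against -0.11 to 0.062 in WT arrays. These are descriptions over 6 arrays, and no test was run on them.

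Fibroblast markers, from cells that also make C4b and Serping1, had a positive difference for all 7 tested, with Pi16 at 0.62 ± 0.20 and Lum at 0.84 ± 0.27 (SE). Their mean relative to WT was 0.82, 0.17 and 0.43 in KO arrays 1, 2 and 3, and their summed intensity was 11827 to 16124 over KO arrays and 10141 to 11431 over WT arrays. Tendon markers had a summed intensity of 2616 to 6295 over KO arrays and 2323 to 3210.2 over WT arrays, with 6 of 6 differences positive. Comp was at 1.02 ± 0.34 and Tnmd at 0.99 ± 0.33 (SE). In both lists 0 genes passed by limma, with 4 and 2 higher at an unadjusted p under 0.05, beside 8.16% of all genes. KO array 1 was highest for 6 of 7 fibroblast and 5 of 6 tendon markers, beside 22.2% of all genes.

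In the means of the mast cell and endothelial lists, KO array 3 lay below every WT array. Mast cell markers stood at 0.59, 0.24 and -1.24 relative to WT in KO arrays 1, 2 and 3. Of their 5 differences 2 were positive and 3 negative, with Kit at 0.20 ± 0.18 and Tpsb2 at -0.26 ± 0.24 (SE). Kit was the exception in KO array 3, where its log2 intensity of 5.61 lay above WT array 1 at 5.52. Endothelial markers stood at 0.33, 0.33 and -0.38 in KO arrays 1, 2 and 3, with 3 of 6 differences positive and 3 negative, Egfl7 at 0.21 ± 0.13 and Pecam1 at 0.19 ± 0.17 (SE). Egfl7 in KO array 3 was nonetheless above every WT array. Serping1 likewise had its lowest value in KO array 3. The 5 neutrophil markers tested had differences of -0.06 to 0.13, with Elane at 0.13 ± 0.11 and S100a9 at 0.11 ± 0.11 (SE), and S100a8, Ly6g and Ngp lay under the dim filter. Of 4 dendritic cell markers, 1 had a positive and 3 a negative difference. Cd209a fell (-1.61 ± 0.12 SE; limma adjusted p = 0.00124), and Ccr7 was at 0.13 ± 0.10 (SE). Flt3 and Zbtb46 were near 0, at -0.03 ± 0.12 and -0.08 ± 0.11 (SE), so the list does not show a common fall. Of 4 T cell markers, 2 had a positive and 2 a negative difference, and Cd4 was at 0.83 ± 0.21 and Cd3e at 0.24 ± 0.12 (SE), and the only B cell marker tested, Cd79b, was at -0.01 ± 0.12 (SE). All 6 adipocyte markers had a negative difference, Retn at -1.44 ± 0.37 and Lep at -1.15 ± 0.37 (SE). Their list mean relative to WT was -0.59, -0.81 and -0.78 in KO arrays 1, 2 and 3, against -0.78, 0.32 and 0.47 in WT arrays 1, 2 and 3, although for Retn every KO array lay below WT array 1. Of 10 muscle fibre markers, 3 had a positive and 7 a negative difference, from -0.28 to 0.43, with Ckm at -0.28 ± 0.08 and Actn3 at -0.25 ± 0.09 (SE). For 7 of them every KO array lay below every WT array, beside 13.8% of all genes, and for 1 above, beside 11.1%. Their summed intensity was 64182, 70296 and 69844 in KO arrays 1, 2 and 3, against 71515 to 72524 over WT arrays. The tissue label was thus matched by bright fibre genes in every array.

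**Figure D3:**
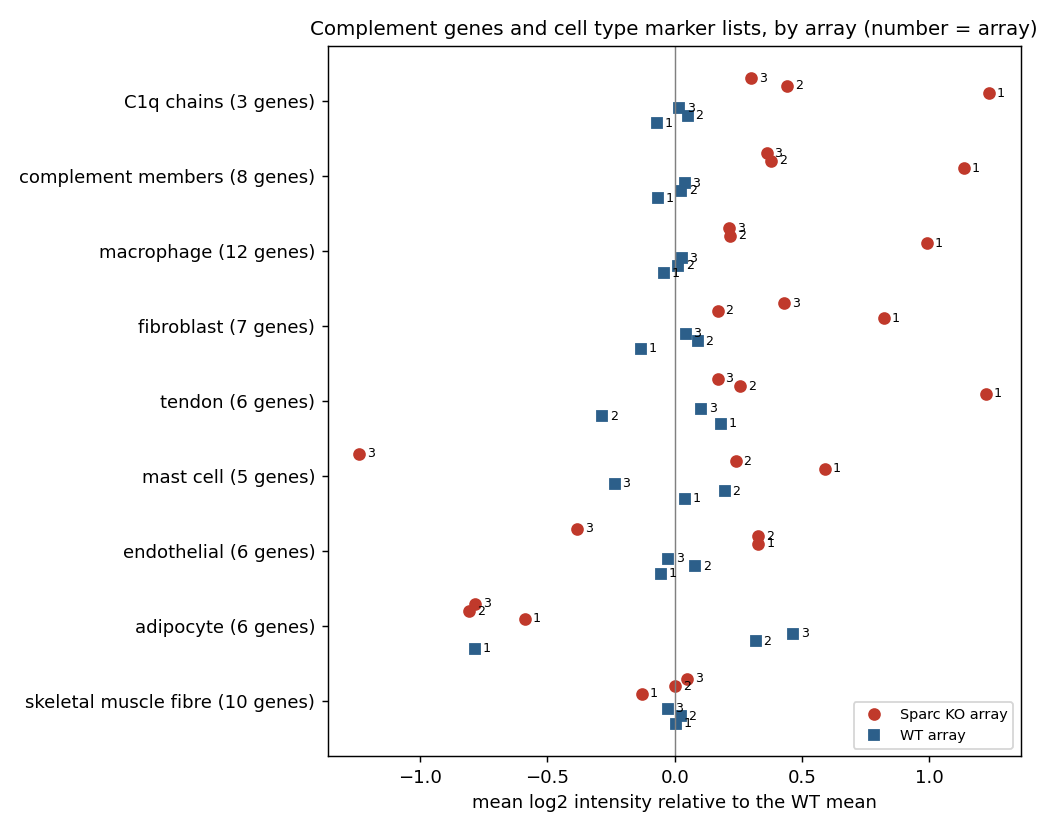
Mean log2 intensity relative to the WT mean (x axis) of complement genes and marker lists, 1 red point per Sparc KO array and 1 blue square per WT array, numbered. KO array 1 lies farthest right for the complement, macrophage, fibroblast, tendon and mast cell rows, and level with KO array 2 at the right of the endothelial row. KO array 3 lies farthest left for the mast cell and endothelial rows.

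Other complement genes were described by a wider list. The 45 symbols left 32 tested genes, of which 23 had a positive and 9 a negative difference, with a median of 0.21. By limma 0 passed over all genes. At an unadjusted p under 0.05, 7 were higher and 0 lower, beside 8.16% of all genes higher and 10.3% lower. Every KO array lay above every WT array for 5, beside 11.1% of all genes: Masp1, Cfb, Cr1l, Csmd1 and Itgam, of which Cr1l was named after its values were seen. KO array 1 was the highest array for 15 of the 32, beside 22.2% of all genes. The 7 and the 23 include Vsig4, whose WT mean of 3.63 lay under the dim filter at 3.90, so that it was tested only through its KO arrays.

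Among the initiators, 6 of 10 tested genes had a positive difference. Masp1, a protease of the lectin pathway, was at 0.39 ± 0.13, and Mbl2, a mannose-binding lectin, at -0.18 ± 0.11 (SE; limma adjusted p = 0.168 and 0.4). All 3 convertase genes tested were positive. Cfb, factor B, which forms the alternative convertase with C3b, had log2 intensities of 7.65, 6.93 and 7.13 in KO arrays 1, 2 and 3, against 6.33, 6.62 and 6.76 in WT arrays 1, 2 and 3. Its groups did not overlap, and its difference of 0.66 ± 0.19 (SE; limma adjusted p = 0.127) passed without KO array 2, at 0.82 (adjusted p = 0.048). In that fit 6.17% of all genes passed.

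In the terminal pathway, C7, a component of the membrane attack complex, had log2 intensities of 11.17, 10.49 and 9.29 in KO arrays 1, 2 and 3, against 8.85, 9.33 and 9.46 in WT arrays 1, 2 and 3. KO arrays 1 and 2 stood above all WT arrays, while KO array 3 lay among them. The difference was 1.11 ± 0.40 (SE; limma adjusted p = 0.195), and 1.62 with a call without KO array 3 (adjusted p = 0.032, beside 0.667% of all genes passing). C8b, another component of that complex, was at 0.20 ± 0.16 (SE), with log2 intensities of 3.96 to 4.53, near the dim filter at 3.90. Hc, C6 and C9 lay under the dim filter.

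Of the soluble regulators, Clu, clusterin, was at 0.11 ± 0.09 and Vtn, vitronectin, at 0.16 ± 0.19 (SE), the only ones above the filter. Of 7 membrane regulators, 4 were positive. Cd59a, which blocks the attack complex, had log2 intensities of 10.85, 10.42 and 9.42 in KO arrays 1, 2 and 3, against 9.65, 9.81 and 9.53 in WT arrays 1, 2 and 3, with KO array 3 again apart from the other KO arrays, as in C7. Its difference was 0.56 ± 0.30 (SE; limma adjusted p = 0.366), and 0.97 with a call without KO array 3 (adjusted p = 0.036, beside 0.667% of all genes passing). Csmd1 was at 0.29 ± 0.10 (SE), and it was dim, with log2 intensities of 4.68 to 5.16 over the arrays. All 6 receptors tested had a positive difference, Vsig4 among them. Itgam, the alpha chain of complement receptor CR3, had log2 intensities of 7.62, 6.90 and 6.44 in KO arrays 1, 2 and 3, against 5.98, 6.13 and 6.25 in WT arrays 1, 2 and 3, without overlap, and a difference of 0.87 ± 0.25 (SE; limma adjusted p = 0.133). For Itgb2, the beta chain, named after its values were seen, the groups overlapped. The difference of Itgb2 was 0.27 ± 0.18 (SE, limma adjusted p = 0.492). Vsig4, a macrophage receptor for C3 fragments, was at 0.70 ± 0.30 (SE), with log2 intensities of 5.08, 4.07 and 3.83 in KO arrays 1, 2 and 3, against 3.48, 3.48 and 3.92 in WT arrays 1, 2 and 3, which can be background.

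**Figure D4:**
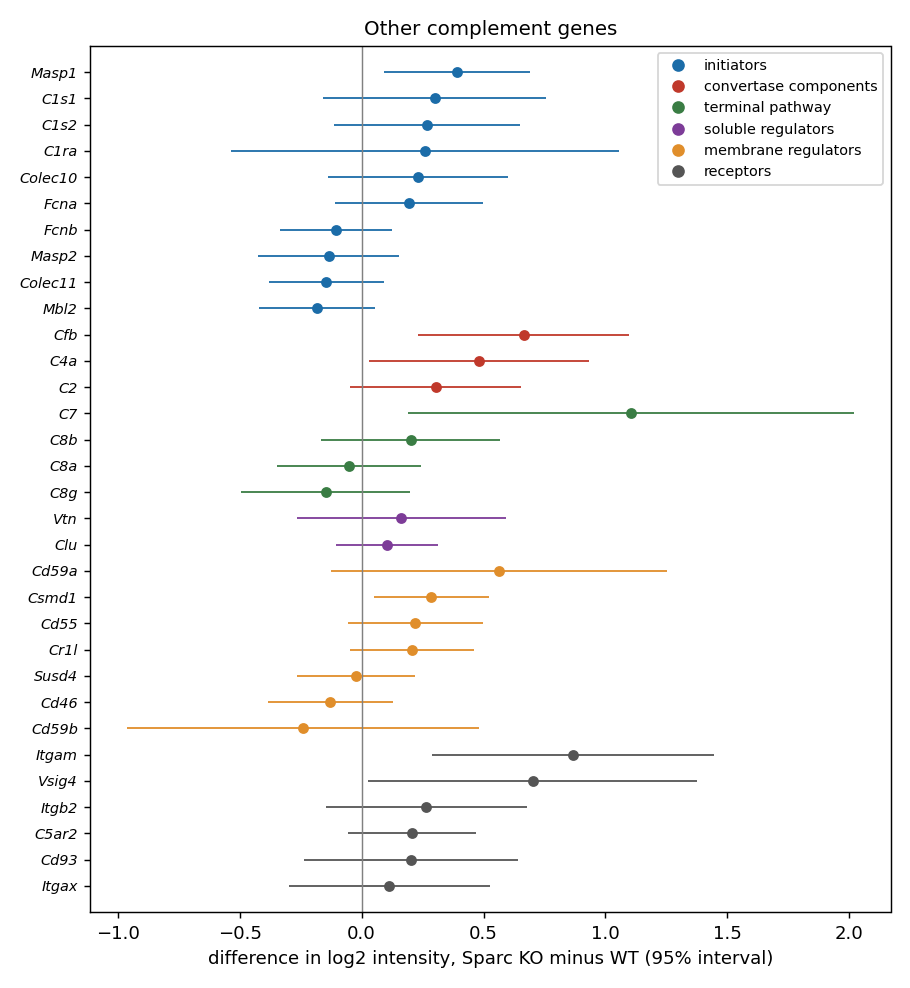
Difference in log2 intensity, Sparc KO minus WT (x axis, with 95% intervals), of 32 other complement genes, coloured by role. Most points lie right of 0, with C7, Itgam, Vsig4 (dim in WT) and Cfb farthest out, and most intervals include 0.

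The genes whose values over the 6 arrays were most like the C1q mean were Rras, Slc44a1, Emp2, Tlr8 and Hpgds, with Pearson correlations of 0.997, 0.997, 0.996, 0.995 and 0.995. Tlr8, an endosomal sensor of RNA, was at 0.88 ± 0.26 and Hpgds, a prostaglandin D synthase, at 0.87 ± 0.28 (SE; limma adjusted p = 0.133 and 0.159). Those most like Serping1 were Lbp, Gng2, Atad1, Enpep and Bmp2k, at 0.998, 0.997, 0.997, 0.997 and 0.997, and Lbp, which binds bacterial lipopolysaccharide, was at 0.30 ± 0.21 (SE; limma adjusted p = 0.508). The points of each correlation are the same 6 arrays, with KO array 1 far from the others, and the genes were picked as the top of all tested.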

How the data were processed

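Biotin-labelled cDNA from gastrocnemius RNA of 6 mice was read on 1 array per mouse. The authors deposited probe set intensity values on a linear scale, from 1.59 to 13566 over 35556 probe sets, which the submitters' processing notes credit to RMA and to version 1.3.0.187 of Affymetrix Expression Console. RMA normalizes between arrays and shrinks differences of dim probe sets. No detection calls were used, depth has no meaning here, and precision rests on the number of arrays. The 6 value columns were matched by accession, with 0 unmapped. The rule for members names log2 values, so log2 was taken with no offset.

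Probe sets with 1 gene symbol (21789) were used and 1621 with several were not, and 12146 were unnamed. The highest-mean probe set stood for a gene. A dim filter at the 25th percentile of probe set means (log2 3.90) kept 16487 of 19938 genes. KO was set against WT by limma 3.58.1 (R 4.3.3), with lmFit and trended eBayes, two-sided, with Benjamini-Hochberg adjustment over all tested genes and a threshold of 0.05. The procedure was tested on simulated data. Errors are the fit's SE or SDs over 3 arrays. The labels do not call the mice littermates. Each p-value sets the genotype difference against the spread between these samples within a genotype, moderated by eBayes over all tested genes.

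The members and lists were chosen with earlier results of these data known. Named genes were the members, Sparc, the 2 smallest p-values in each role of the wider list and in each marker list, and the 5 nearest patterns. The markers Lyve1, Cd163, Mrc1, Flt3 and Zbtb46 were named after their values were seen. Same-numbered KO and WT arrays had correlations of deviations of 0.0088, 0.082 and -0.020. With 3 arrays per group these cannot show whether the numbers pair the mice. Alternatives covered normalization, filter, probe set choice, variance model, array weights, the replicate block and leaving out each array.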

Additional observations from a re-analysis of the deposited data

How the results depend on the processing

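Under 16 alternatives, all 8 complement genes kept a positive difference, and 126 of 128 values stayed on their side of the threshold. The 2 exceptions were C4b and C3ar1, which passed without KO array 2. The number of members called was 0 to 2 when 1 array was left out, and that of the wider list 0 to 2 (Cfb without KO array 2, C7 and Cd59a without KO array 3). Of all genes, 6.17% passed without KO array 2 and 0.667% without KO array 3. Leaving out 1 array, an alternative chosen after seeing the data for this count, left 4 to 7 members higher at an unadjusted p under 0.05, with 4 without WT array 1, beside 4.87% to 10.7% of all genes (4.87% without WT array 1). Among all genes, 164 passed, against 103 after median centring, 329 with array weights and 27 to 1017 when 1 array was left out (32, 30 and 27 without WT arrays 1, 2 and 3, and 1017 without KO array 2). The replicate block, whose numbers are not known to pair samples, gave 123 calls over all genes and 0 among the members. It changed no member's call. With an offset of 16 before log2, tried for the members alone, 0 were called. Sparc passed in the fits of the other 15 alternatives.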
